A study of Homo sapiens with 6 samples.

Results

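The semaphorins, their plexin receptors and the neuropilin co-receptors were described by where the histone mark H3K27ac was enriched at their genes in an established line of human clear cell sarcoma (CCS) cells, SU-CCS-1, whose genotype is given as EWSR1::ATF1. The 31 genes were chosen by name, 20 semaphorins and 11 receptors, out of 20015 protein-coding genes of GENCODE version 44. H3K27ac, acetylation of lysine 27 on histone H3, is found at active promoters and enhancers. The series holds 3 H3K27ac chromatin immunoprecipitation (ChIP) libraries and 3 input libraries, input being sonicated chromatin sequenced without immunoprecipitation. All 6 came from this line and carried the fusion, and there was no treated, fusion-negative or normal cell to compare. A single merged list of 30784 peaks in hg38 coordinates was analysed, which gives a position and a name for each peak and no height, read depth or value per replicate. No error between replicates could therefore be given for any width or count below, and no test was made. A gene without a peak was below the peak caller's cutoff or had its peak removed after calling, which does not show that it lacked acetylation.

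Semaphorins are guidance proteins that carry a conserved sema domain, and they steer axons, vessels and migrating cells, the neural crest included. Vertebrate class 3 semaphorins are secreted, classes 4, 5 and 6 are transmembrane proteins, and class 7 is tethered to the membrane by a GPI anchor. Plexins are their large transmembrane receptors, with an intracellular domain that acts on small GTPases of the Ras and Rap families. Most class 3 semaphorins bind plexins of the A group through a neuropilin, which also serves as a co-receptor for vascular endothelial growth factor. CCS shares a melanocytic gene programme with melanoma, and melanocytes arise from the neural crest.

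A promoter peak was a peak with any base within 3 kb of a start site of any annotated transcript of the gene. Any other peak that overlapped the gene was a gene body peak. In all, 66 peaks were found at the 31 genes, of which 42 were promoter peaks and 24 were gene body peaks, and none of them was counted for more than 1 of these genes. The promoter peak farthest from a start site of its gene lay 2729 bases away, at SEMA4G, and the nearest gene body peak lay 4568 bases away, in NRP2. Among the lineage markers, 6 of 7 melanocyte and CCS genes (85.7%) had a promoter peak, against 63.4% of all protein-coding genes. The widest, of 18040 bases, was at SOX10, while TYR had no promoter peak. None of the 4 skeletal muscle, 2 blood, 2 epithelial and 2 endothelial markers had one, although PTPRC held 1 gene body peak.

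Promoter acetylation was called at most of the family. A promoter peak was present at 24 of the 31 genes (77.4%), against 63.4% of all protein-coding genes. Of the semaphorins 15 of 20 (75%) had one, and of the plexins and neuropilins 9 of 11 (81.8%). The canonical start site, the one Ensembl takes to represent the gene, lay inside a peak at 20 of the 31 (64.5%), against 53.5% of all protein-coding genes. These genes have a median of 9 annotated start sites and a length of 54.7 kb, against 5 start sites and 27.5 kb over all coding genes. More start sites give a gene more chances of a promoter peak, and the part of this in the counts was not tested. Counted by start site instead, 90 of 309 (29.1%) lay inside a peak, against 41.2% over all coding genes. Both counts include start sites of transcripts not annotated as coding, many of which lie far inside the gene in this family.

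**Figure D1:**
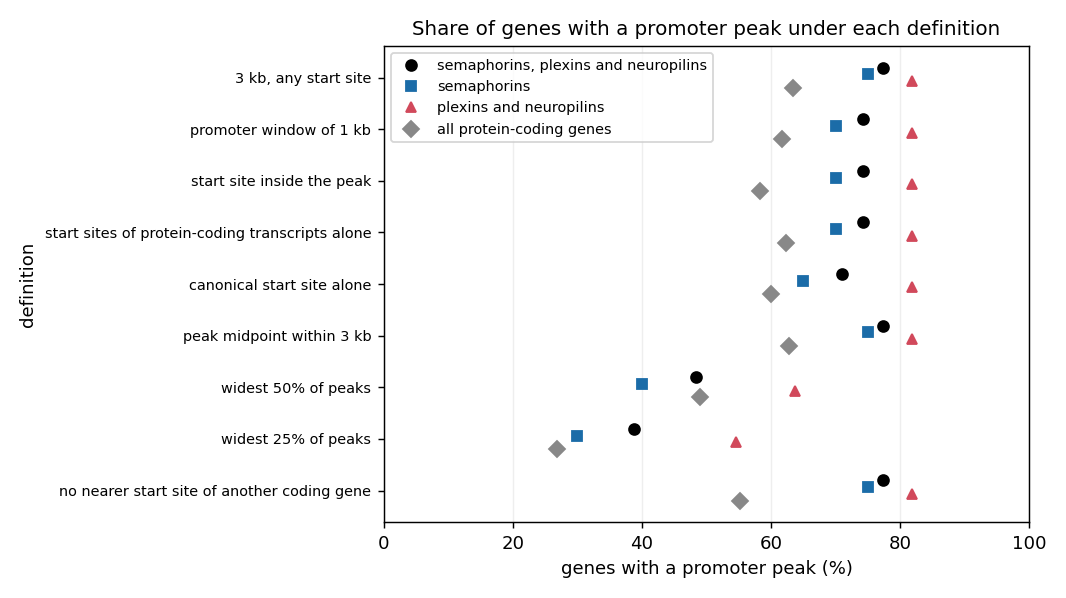
Percentage of genes with a promoter peak (horizontal axis) under each definition of a promoter peak (vertical axis) for all 31 genes (circles), the 20 semaphorins (squares), the 11 plexins and neuropilins (triangles) and all 20015 protein-coding genes (diamonds). Under the definition in the top line the values are 77.4%, 75%, 81.8% and 63.4%, and restricting the list to its widest 50% of peaks brings the 31 genes to about the level of all coding genes.

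The presence of a promoter peak differed with gene length in the family. Of the 17 genes under 100 kb, 16 (94.1%) had a promoter peak, against 61.6% of all coding genes of that length, and the exception was SEMA3G. Of the 14 genes of 100 kb or more, 8 (57.1%) had one, against 71.5% of coding genes of that length. The 6 long genes without a promoter peak were SEMA3D, SEMA3E, SEMA4D, SEMA5B, PLXNA2 and NRP1. None of the 7 genes without a promoter peak held a gene body peak, and of all coding genes without a promoter peak 7.76% held one.

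The median promoter peak was wider at the receptors than at the ligands. The widest promoter peak of a gene had a median of 2900 bases over the 9 plexins and neuropilins that had one (range 490 to 8180) and 1170 bases over the 15 semaphorins (range 430 to 7670), and the ranges overlapped. Over all coding genes with a promoter peak the median was 1600 bases, with quartiles of 1110 and 2250. A peak over 2 kb was found at 6 of the 9 receptors (66.7%), at 6 of the 15 semaphorins (40.0%) and at 32.1% of all coding genes with a promoter peak. A promoter peak among the widest 25% of all peaks, those of about 1760 bases or more, was present at 12 of the 31 genes (38.7%), against 26.9% of all coding genes. Those 12 comprised 6 semaphorins (SEMA3B, SEMA4A, SEMA4C, SEMA5A, SEMA6A and SEMA6D), 5 plexins (PLXNA1, PLXNB1, PLXNB2, PLXNB3 and PLXNC1) and NRP2. The study reports calling peaks in broad mode, which joins neighbouring enriched stretches, but how this list was built is not given. Every peak lay on a grid of 10 bases, and none was narrower than 400. Close neighbours could stay separate: at SEMA3B 1 peak ended 2707 bases before the canonical start site and the next began 2616 before. A width or a number of peaks reflects signal height and unknown rules of joining and splitting, in addition to how far the mark reached.

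**Figure D2:**
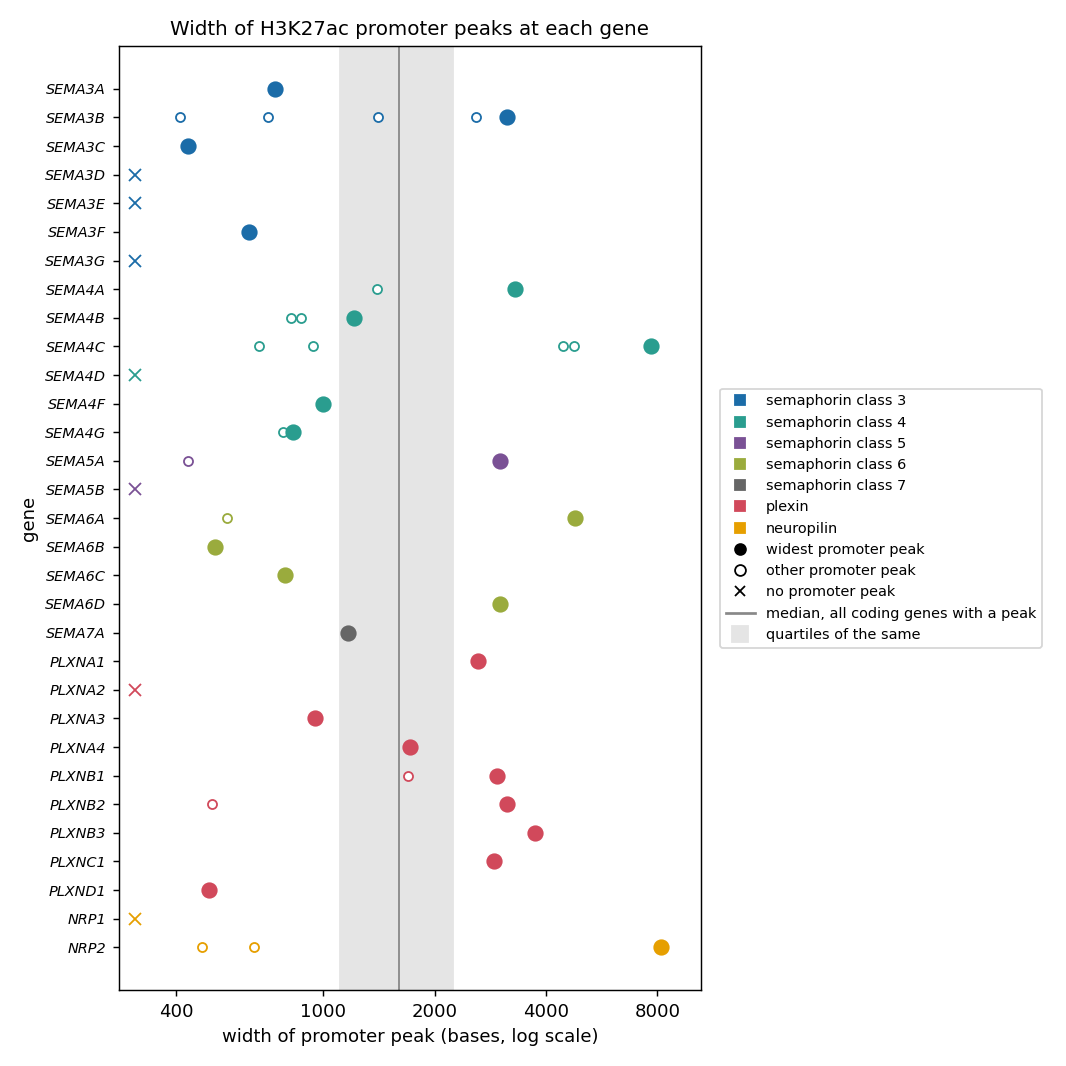
Width of every promoter peak in bases (horizontal log axis) at each of the 31 genes (vertical axis), coloured by class, with the widest peak of a gene filled, its others open and genes without one marked by a cross at the left edge. The line and the grey band give the median (1600 bases) and the quartiles (1110 and 2250) over all coding genes with a promoter peak, and the points spread to both sides of the band, from 430 bases at SEMA3C to 8180 at NRP2.

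Of the secreted class 3 semaphorins 4 of 7 (57.1%) had a promoter peak, against 63.4% of all coding genes, with widest peaks of 740 bases at SEMA3A, 3130 at SEMA3B, 430 at SEMA3C and 630 at SEMA3F, a median of 685. The membrane-bound classes 4 to 7 had one at 11 of 13 (84.6%), with a median of 1210 bases, and the median over all coding genes with a promoter peak was 1600. SEMA3A, a repellent of growing axons that signals through NRP1, carried its peak from 661 bases before to 78 bases after the canonical start site, and the peak at SEMA3F, a ligand of NRP2, ran from 413 bases before to 216 after. The peak at SEMA3C ended 40 bases short of the canonical start site but covered 2 other start sites of the gene. Of the coding genes with a promoter peak, 0.725% had a widest peak narrower than its 430 bases, which is near the list's minimum of 400. SEMA3D, SEMA3E, which signals through PLXND1 without a neuropilin, and SEMA3G had no promoter peak.

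SEMA3C, SEMA3E, SEMA3A and SEMA3D lie in a stretch of 4.445 Mb on the long arm of chromosome 7 (chr7:80742538-85187056) that held 8 peaks, or 1.80 per Mb against 9.83 per Mb for the whole chromosome. It also holds the coding genes HGF, CACNA2D1 and PCLO. The canonical start site of SEMA3D was 991.6 kb from any peak, and only 145 of the 20015 coding genes were as far or farther. That of SEMA3E was 291.3 kb away. No peak lay within 100 kb of either gene.

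SEMA3B, a secreted ligand of the neuropilins, differed from the other class 3 genes in its number of peaks. It had 5 promoter peaks, of 3130, 1410, 2590, 410 and 710 bases in order along the gene, and 11 of its 15 start sites lay inside one. Peaks covered 41.0% of its 9.99 kb. The 2590-base peak held the canonical start site, and the 3130-base peak lay 2707 to 5836 bases before it, nearer to a start site of SEMA3B than of any other coding gene, with start sites of non-coding RNAs, SEMA3B-AS1 among them, within 3 kb. When neighbouring peaks were joined over the gap length that the study used for stitching, SEMA3B fell in a region of 10 peaks that summed to 23.82 kb, which ranked 85 of 17049 and which also overlapped GNAI2.

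Class 4 had promoter peaks at 5 of 6 genes (83.3%), against 63.4% of all coding genes. It had no gene body peak, and 17.9% of all coding genes held one. Every class 4 gene but SEMA4D is under 100 kb, and 12.1% of coding genes of that length held one. Peaks inside SEMA4A and SEMA4C near internal start sites counted as promoter peaks. SEMA4C, a ligand of PLXNB2, had the widest semaphorin peak at 7670 bases, wider than the widest promoter peak of 98.7% of coding genes that have one. It ran from 1470 bases before to 6199 after the canonical start site. All 6 start sites of SEMA4C lay inside peaks, peaks covered 86.1% of its 11.04 kb, and 5 promoter peaks summed to 18500 bases. Of these, the 4460-base peak across the 3′ end also held start sites of ANKRD23 and ANKRD39.

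SEMA4A, an immune and retinal semaphorin, had peaks of 1400 and 3300 bases, but its canonical start site was 5935 bases from the nearer of them. The 1400-base peak covered 2 start sites upstream of the canonical one, and the 3300-base peak lay 7136 to 10435 bases downstream, with its midpoint in intron 9, and covered 2 start sites of transcripts annotated as retained introns. SEMA4B had peaks of 870, 820 and 1210 bases, the first of which held no start site, and 6 of its 20 start sites lay inside peaks. SEMA4F had 1 peak of 1000 bases that held 8 of its 9 start sites. At SEMA4G the peak at its own start measured 780 bases, and an 830-base peak beyond its 3′ end held the start sites of MRPL43 and TWNK. SEMA4D, known on lymphocytes and as the ligand of PLXNB1, had none of its 20 start sites in a peak, and its canonical start site was 177.5 kb from the nearest.

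Of class 5, SEMA5A had a wide promoter peak and SEMA5B had none. SEMA5A, a transmembrane protein whose thrombospondin repeats bind proteoglycans, spans 511 kb of the minus strand of chromosome 5. Its main peak, chr5:9545111-9548120, measured 3010 bases and ran from 2045 bases before to 964 after the canonical start site, wider than the widest promoter peak of 87.4% of coding genes with one. The start sites of the non-coding RNAs SNHG18 and SNORD123 lay within 3 kb of it. A second promoter peak of 430 bases lay 1305 to 1734 bases downstream in intron 1. Only 1 of its 4 start sites was in a peak. Gene body peaks of 720 bases in intron 1, 5.5 kb downstream, and 890 bases in intron 5, 301.2 kb downstream, left 0.588% of the gene inside peaks, which was more than in 44.7% of coding genes of 100 kb or more. The canonical start site of SEMA5B was 38.99 kb from the nearest peak, which lay at the start of PDIA5.

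All 4 class 6 genes met the 3 kb rule, against 63.4% of all coding genes. At 3 of the 4 a peak held the canonical start site, against 53.5% of all coding genes. SEMA6A, a ligand of PLXNA2 and PLXNA4, had a 4780-base peak from 1897 bases before to 2882 after that site and a second promoter peak of 550 bases in intron 6, near an internal start site. SEMA6D, a ligand of PLXNA1, had a 3000-base peak that held 6 of its 13 start sites, and no start site more than 100 kb upstream in this 590.1 kb gene was in a peak. SEMA6C had 1 peak of 790 bases. The 510-base peak at SEMA6B lay in exon 17 of 17, was 2099 bases from the start site of a transcript annotated as a retained intron, and was 15.3 kb from the canonical start site. It no longer counted within 1 kb or with coding transcripts alone. SEMA7A, the class 7 ligand of PLXNC1 and of integrins, had an 1170-base peak that held 3 of its 4 start sites and a gene body peak of 2410 bases in intron 1.

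**Figure D3:**
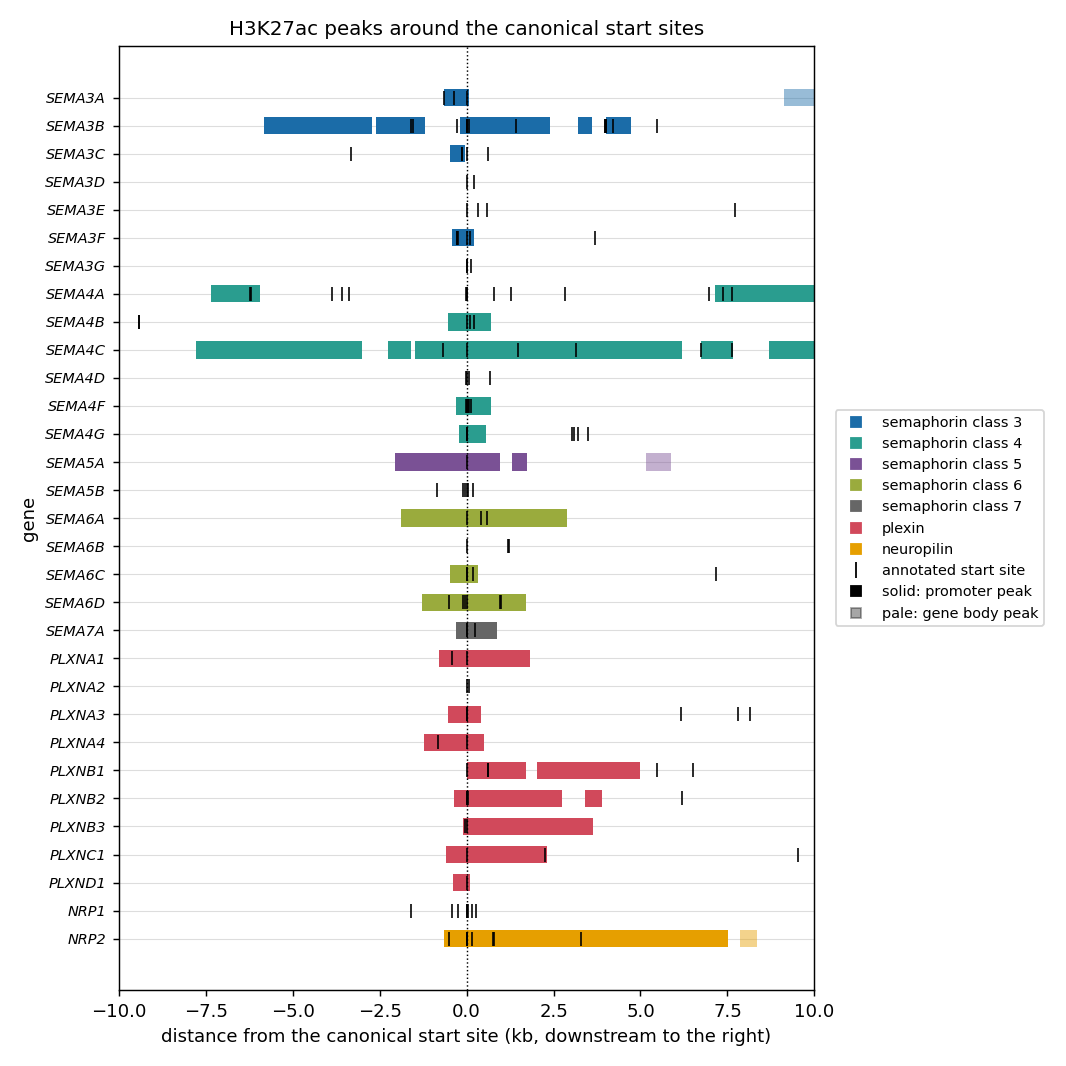
Peaks assigned to each of the 31 genes (vertical axis) within 10 kb of the canonical start site, as bars against distance in kb with downstream to the right (horizontal axis), and annotated start sites as black ticks. The bar at NRP2 runs to 7.5 kb and the bar at SEMA4C to 6.2 kb downstream, while 7 genes have no bar anywhere and that of SEMA6B lies beyond the plotted window.

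Among the plexins 8 of 9 (88.9%) had a promoter peak, against 63.4% of all coding genes. Their median widest peak was 2760 bases, against 1600 over all coding genes with a promoter peak. Of the A group, which pairs with neuropilins and binds class 6 semaphorins, PLXNA1 had a 2620-base peak, PLXNA3 one of 950 bases and PLXNA4 one of 1720 bases, each over the canonical start site. PLXNA2 had none, and its canonical start site was 232.8 kb from any peak. Of the B group, which includes the main receptors of class 4 semaphorins, PLXNB2 had a 3130-base and PLXNB3 a 3730-base peak over the canonical start site. At PLXNB1 that site lay 6 bases outside a 1700-base peak, which held 2 of its other start sites, and a 2950-base peak followed in intron 1. PLXNC1 had a 2900-base peak. PLXND1, the receptor of SEMA3E, had 1 of 490 bases, and the widest promoter peak was narrower than this at 2.26% of coding genes with one. Its promoter was the richest in G and C of the 31 genes at 87.3%.

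Few of the annotated start sites of plexins lay in peaks, 16 of 91 (17.6%) against 41.2% over all coding genes. PLXND1 had 1 of 17, PLXNB1 2 of 18 and PLXNA3 2 of 9. Most of the sites in these genes belong only to transcripts not annotated as coding, which were counted for all genes alike. The canonical start site lay inside a peak at 7 of the 9 plexins (77.8%), against 53.5% of all coding genes. Where the canonical start site was inside a peak, the median extent was 563 bases upstream and 2069 downstream at the 8 receptors and 494 and 785 bases at the 12 semaphorins, against 668 and 847 over all coding genes. The downstream side was the longer at 5 of the 8 receptors (62.5%), at 8 of the 12 semaphorins (66.7%) and at 65.3% of coding genes.

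The neuropilins differed, with the widest promoter peak of the 31 genes at NRP2, while NRP1 was among the 7 without one. NRP2, the co-receptor favoured by SEMA3F, had a promoter peak of 8180 bases, wider than the widest promoter peak of 98.9% of coding genes that have one. It ran from 650 bases before to 7529 after the canonical start site and held 8 of the 15 start sites. Further promoter peaks of 650 and 470 bases lay 38.5 to 40.0 kb downstream, near an internal start site in intron 3. Gene body peaks of 490 and 3680 bases lay in intron 1, 6470 bases in intron 2 and 1310 bases in intron 3. In all 18.2% of the 116.1 kb gene was inside peaks, more than in 98.9% of the 3666 coding genes of 100 kb or more, and its density of gene body peaks exceeded that of 95.01% of them.

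NRP1, the co-receptor favoured by SEMA3A, had no peak. None of its 13 start sites was in a peak, no peak lay within 100 kb of the gene, and its canonical start site was 353.3 kb from the nearest peak, which was nearest to ITGB1. Of the 20015 coding genes, 726 were as far or farther from a peak, and 13.5% were 100 kb or more away. The distance was 100 kb or more at 5 of the 31 genes, namely SEMA3D, SEMA3E, SEMA4D, PLXNA2 and NRP1.

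Gene body peaks were present at 9 of the 31 genes (29.0%), against 17.9% of all coding genes. Of the 14 genes of 100 kb or more, 7 held one (50%), against 43.9% of coding genes of that length. The 11 receptor genes held 14 such peaks, 1.014 per 100 kb of gene, and the 20 semaphorins 10, or 0.336 per 100 kb. The value over all coding genes was 0.682 per 100 kb. Among genes of 100 kb or more the densities were 1.10 for the 5 receptors, 0.335 for the 9 semaphorins and 0.625 for all coding genes. Of the 14 receptor peaks, 5 were in PLXNA4, 4 in PLXNC1, 4 in NRP2 and 1 in PLXNA1, so that all but 1 of them lay in 3 genes.

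PLXNA4, a receptor of SEMA6A that also joins NRP1, held peaks of 2990, 3060 and 1710 bases in intron 3, which lay 134.3 to 248.2 kb from the canonical start site by their midpoints, and 570 and 490 bases in intron 1. Those in intron 3 included a pair wider than its own promoter peak. PLXNC1 held peaks of 1600, 810 and 1110 bases close together in intron 1, 15.8 to 20.3 kb downstream, and one of 420 bases in intron 4. SEMA3A held peaks of 1790 and 480 bases in intron 1, and SEMA6A peaks of 440 and 860 bases in intron 1. SEMA6D held 400 and 530 bases in its last exon, exon 19, and 1140 bases 245.6 kb upstream of the canonical start site. PLXNA1 held 1390 bases in intron 3.

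Intron 1 of the canonical transcript held 13 of the 24 gene body peaks (54.2%), against 25.8% of the 9401 pairs of a coding gene and a gene body peak. PLXNC1 held 3 of the 13, and NRP2, SEMA6A, SEMA3A and PLXNA4 held 2 each, so they are not independent positions. Over the 9 genes with such peaks, intron 1 made up 7.13% (SEMA6D) to 59.9% (SEMA7A) of the gene. That share is not given for all coding genes, so 54.2% and 25.8% are not matched for intron length. Of the 24, other introns held 8, exons 2 and sequence outside the canonical transcript 1. The median width was 1000 bases, and 6 of the 24 were among the widest 25% of all peaks.

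**Figure D4:**
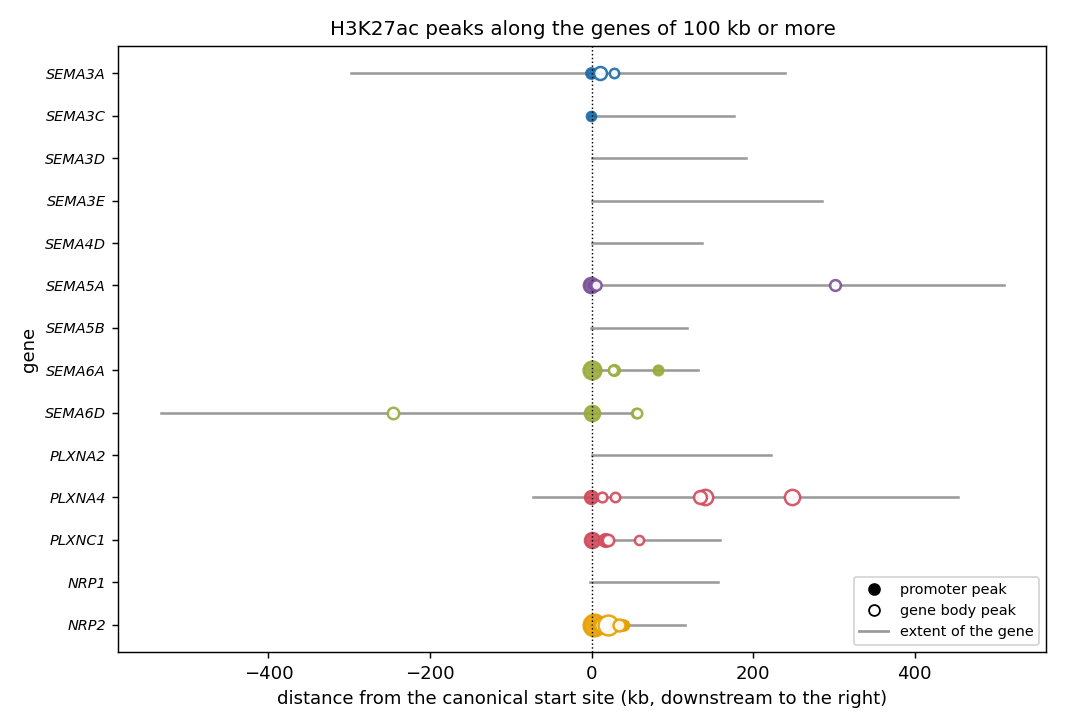
Peaks along the 14 genes of 100 kb or more (vertical axis) by distance of the peak midpoint from the canonical start site in kb (horizontal axis), with promoter peaks filled, gene body peaks open, circle size increasing with peak width and a grey line for the extent of the gene. The genes without a circle are SEMA3D, SEMA3E, SEMA4D, SEMA5B, PLXNA2 and NRP1, and PLXNA4, SEMA5A and SEMA6D hold peaks more than 200 kb from the start site, that of SEMA6D upstream of it.

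**Figure D5:**
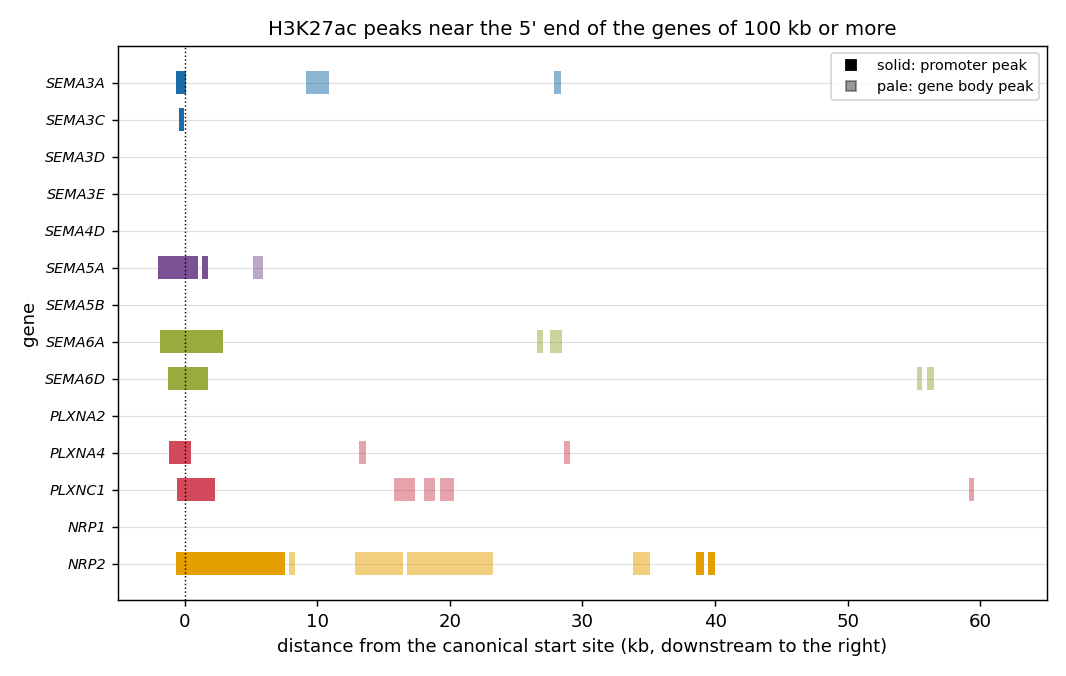
The same 14 genes (vertical axis) from 5 kb before to 65 kb after the canonical start site, with bars drawn to scale against distance in kb (horizontal axis), solid for promoter peaks and pale for gene body peaks. The bars of NRP2 cover most of its first 23 kb, those of PLXNC1 gather between 15.8 and 20.3 kb, and NRP1 has none.

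After the same joining of neighbouring peaks, 879 of 17049 regions passed the point where the curve of ranked summed widths, with both axes scaled to the same length, reached a slope of 1. This ranking used width, and its regions are not super-enhancers as called from reads. Such a region overlapped 5 of the 31 genes (16.1%), against 7.58% of all coding genes. SEMA4C ranked 58 with 28.02 kb in 9 peaks, SEMA4A ranked 62 with 27.49 kb in 9 peaks, SEMA3B ranked 85, NRP2 ranked 118 with 21.25 kb in 7 peaks, and PLXNA1 ranked 624 with 9.63 kb in 5 peaks. Other coding genes were overlapped in each case but NRP2, namely LMNA with SEMA4A, CHCHD6 with PLXNA1, and ANKRD23, ANKRD39 and FAM178B with SEMA4C. The SEMA4A region, chr1:156105281-156147650, ended just inside that gene, which begins at base 156147366, and left out its 3300-base peak. The PLXNA1 region, chr3:126956471-126984940, also lay mostly before its gene, which begins at base 126982693. The SEMA3B region, chr3:50227121-50273860, also began far before its gene, which begins at base 50267558. The SEMA4C region, chr2:96839961-96881910, ran past both ends of its gene, which spans bases 96859718 to 96870757. Ranks of these regions therefore describe mainly sequence outside the bounds of SEMA4A, PLXNA1, SEMA3B and SEMA4C, although the 5 promoter peaks of SEMA4C summed to 18500 bases. The NRP2 region, chr2:205681851-205722460, lay in NRP2 alone. When peaks entirely inside 2.5 kb of a start site were not joined, SEMA4C and NRP2 stayed past the point.

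Known ligand and receptor pairs were set side by side, with the pairs chosen from background knowledge after the values were seen. SEMA7A (1170 bases) and PLXNC1 (2900), SEMA4C (7670) and PLXNB2 (3130), SEMA6D (3000) and PLXNA1 (2620), SEMA5A (3010) and PLXNB3 (3730), SEMA6A (4780) and PLXNA4 (1720), and SEMA3F (630) and NRP2 (8180) each had a promoter peak on both sides. SEMA4D had none while PLXNB1 had one of 2950 bases, and SEMA3E had none while PLXND1 had one of 490. SEMA3A had a peak of 740 bases while NRP1 had none, and SEMA6A had one while its other receptor PLXNA2 had none. A promoter peak was present at 75% of semaphorins and 81.8% of plexins and neuropilins, so peaks on both sides are common whatever the pairing. Whether known pairs matched more often was not tested. The widths say nothing of how much protein is made.

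Upstream sequence was examined because the fusion carries the DNA-binding domain of ATF1, which recognises the cAMP response element TGACGTCA. In the window from 250 bases before to 50 after the canonical start site, TGACGTCA was found on either strand at 1 of the 31 genes, SEMA4C, and at 2.69% of the 20015 coding genes. Its flexible form TGANNTCA, which includes TGACGTCA, was found at the same site of SEMA4C only and at 9.94% of coding genes. A match describes letters in a window and not binding. The 250 bases upstream of SEMA4C, which lie inside its 7670-base peak, and those of SEMA5A, which lie inside its 3010-base peak and hold neither motif, are shown 5′ to 3′ from hg38, both on the minus strand, with the motif in capitals.
SEMA4C, chr2:96870081-96870330: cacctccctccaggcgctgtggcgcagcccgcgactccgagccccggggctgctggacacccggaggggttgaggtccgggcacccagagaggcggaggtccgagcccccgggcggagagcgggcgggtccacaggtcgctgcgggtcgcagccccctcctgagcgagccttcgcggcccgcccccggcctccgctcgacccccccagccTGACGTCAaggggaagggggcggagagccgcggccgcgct
SEMA5A, chr5:9546076-9546325: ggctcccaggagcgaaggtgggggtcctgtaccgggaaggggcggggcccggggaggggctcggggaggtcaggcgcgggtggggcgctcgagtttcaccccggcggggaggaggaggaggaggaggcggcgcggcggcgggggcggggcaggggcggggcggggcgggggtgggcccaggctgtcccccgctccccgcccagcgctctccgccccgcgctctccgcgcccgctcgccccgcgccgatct
The motif began 40 bases before the canonical start site in SEMA4C. The window of SEMA5A was 81.0% G and C. Over the 24 genes with a promoter peak the median was 70.3% with an observed over expected CpG ratio of 0.743, and over the 7 without it was 63.3% with 0.579. Over all coding genes these were 66.3% and 0.857 with a promoter peak and 56.0% and 0.370 without. Among the 7, the ratio was 0.803 at SEMA4D, 0.793 at SEMA5B and 0.812 at PLXNA2.

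Within the 66 peaks, TGACGTCA occurred once, 8.42 per Mb against 19.1 per Mb over all peaks. TGANNTCA occurred 41 times, 345 per Mb against 466 per Mb. The AP1 site TGAGTCA, whose other strand reads TGACTCA, occurred 17 times in 13 peaks, 143 per Mb against 150.5 per Mb. The 24 gene body peaks held 7 of these, 196 per Mb, against 187 per Mb in all peaks beyond 3 kb of any start site. NRP2, whose peaks made up 21.25 of the 118.8 kb in the 66 peaks, had 5 of the 17. SEMA3B had 4, and the remaining 8 genes with a site had 1 each. The NRP2 sites are shown on the plus strand of hg38 with 25 bases on each side and the motif in capitals, the first pair inside the 8180-base promoter peak, the next in the 3680-base peak and the last pair in the 6470-base peak.
NRP2, chr2:205685398-205685454: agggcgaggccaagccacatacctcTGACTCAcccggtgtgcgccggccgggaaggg
NRP2, chr2:205687968-205688024: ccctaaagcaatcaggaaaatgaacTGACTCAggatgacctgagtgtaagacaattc
NRP2, chr2:205698437-205698493: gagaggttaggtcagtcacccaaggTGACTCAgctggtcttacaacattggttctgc
NRP2, chr2:205700728-205700784: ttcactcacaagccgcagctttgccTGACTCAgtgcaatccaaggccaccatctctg
NRP2, chr2:205701014-205701070: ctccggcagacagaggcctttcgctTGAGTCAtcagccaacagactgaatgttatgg
They lay 2.92, 5.49, 15.96, 18.25 and 18.54 kb downstream of the canonical start site.

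Partners and effectors of semaphorin signalling had a promoter peak at 31 of 42 genes (73.8%), against 63.4% of all coding genes, with a median widest peak of 1890 bases (range 590 to 7550). The widest were at VEGFA, the growth factor that shares the neuropilins (7550 bases), CDK5, a kinase that acts on collapsin response mediator proteins (6080), and CFL1, the actin-severing cofilin (5970). FYN, a kinase that associates with A plexins, had 9 promoter peaks and 10 gene body peaks, and FARP1, a guanine nucleotide exchange factor, had 10 and 20. Among co-receptors and other partners, MET had a peak of 1650 bases, ERBB2 of 1370, ITGB1 of 1740 and CHL1 of 1610. KDR, FLT1, L1CAM, NRCAM, TREM2 and TYROBP had no promoter peak. Of the collapsin response mediator proteins, DPYSL2 (2640 bases) and DPYSL3 (590) had a promoter peak and DPYSL4, DPYSL5 and CRMP1 did not. FES and RND1 also had none.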

How the data were processed

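H3K27ac ChIP and input from SU-CCS-1 cells (3 replicates each, grouped by title) were analysed. Reads were aligned by the authors with BWA-MEM 0.7.10-r789 on hg38, removed duplicates with samtools, called broad peaks with MACS2 2.2.6 against input, and removed peaks in the ENCODE denylist. Per the file headers and values, the deposited list holds coordinates only, so its unit is a position in bases, and how replicates were joined for this peak list is not given in the sources used here. The search of promoter windows for TGAGTCA is not reported here. Calls depend on depth, input and cutoff.

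Start sites came from GENCODE version 44, for 20015 protein-coding genes on 24 chromosomes, with genes shared by X and Y counted once. Peaks were matched to genes with Python 3.11.15, pandas 2.3.3 and pysam 0.24.0, and the look-ups were tested on simulated data. All 31 genes, the listed partners and markers, and neighbours of a described peak could be named. Members and lists were chosen with earlier results of these data known. No test was made, since the list holds no replicate values. Alternatives changed the promoter window, the transcripts, the overlap rule, the peak width and the joining of peaks.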

Additional observations from a re-analysis of the deposited data

How the results depend on the processing

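Of 51 alternatives over 10 results, 35 stayed within 1.5 times the main count or width, or within its 95% Wilson interval for a percentage, and 16 did not. With the widest 50% of peaks, promoter peaks were left at 15 of the 31 genes and 8 semaphorins, and with the widest 25% at 12 and 6. The 9 receptors went to 7 and 6. The share of all coding genes with a promoter peak, 63.4%, became 61.7% within 1 kb, 58.3% with the start site inside the peak, 62.3% for coding transcripts, 59.9% for the canonical start site, 48.98% and 26.9% for the widest 50% and 25% of peaks, and 55.2% where no other coding gene was nearer. Gene body peaks dropped from 24 to 12 with the widest 50% of peaks, and their share over all coding genes from 17.9% to 9.93%, to 17.0% by midpoint and to 13.5% beyond 3 kb of any start site. The 5 genes in joined regions became 2 without peaks at start sites. Each of these alternatives counts fewer peaks or fewer start sites by construction. SEMA6B was lost within 1 kb, with the start site inside the peak and with coding transcripts, and SEMA6B and SEMA4A with the canonical start site. No paired analysis was possible because the list holds no values per replicate, and for the same reason no replicate could be left out. Read depth behind each peak is unknown, so a narrow or absent peak cannot be told apart from shallow sampling.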
